A study of Mus musculus with 9 samples.

Results

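The genes described here encode the sarcomere, the contractile unit of heart muscle, and were chosen by name: 32 genes for myosins, myosin light chains, actins, troponins, tropomyosin, titin and the proteins that assemble, cap and anchor the filaments. On the array used, 31 of the 32 could be followed, out of 30142 genes with a symbol of their own, and Actc1, the cardiac actin gene, was not analysed here. The RNA came from entire hearts of nude mice, which are immunodeficient. All of them carried a permanent ligation of the left anterior descending artery and had an ejection fraction below 50% when they entered the study 3 weeks later. Vesicle hearts (Ves, 3 arrays) had received the extracellular vesicles that 500000 cardiovascular progenitor cells release in 48 hours, cell hearts (Cell, 3 arrays) 500000 of the cells themselves, the sham heart (Sham, 1 array) needle insertions with nothing injected, and medium hearts (Ctrl, 2 arrays) alpha-MEM. Hearts were taken 6 weeks after treatment. The sham heart was therefore an infarcted heart as well, and no uninfarcted heart was analysed here.

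Titles place array 1 of each group in an experiment numbered 9 and arrays 2 and 3 in an experiment numbered 1, so that the sham array belongs to experiment 9; what the numbers stand for is not stated. The titles also carry an unexplained VTS number, which is 3 for the arrays of experiment 9, 1 for arrays 2 and 2 for arrays 3. In every list of values below, the first vesicle, cell and medium value is therefore the array of experiment 9. Nothing in the labels says that arrays came from separate animals, so p-values measure the spread between these arrays. Arrays have no read depth, and their number limits the precision. RNA came from the whole organ, in which fewer muscle cells and less RNA per muscle cell cannot be told apart.

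In the sarcomere, myosin heads of the thick filament pull on actin of the thin filament, and calcium permits this by moving troponin and tropomyosin on actin. Titin spans from the Z-disc, where thin filaments are anchored, to the M-band, where thick filaments are cross-linked. Mouse ventricle uses mainly the fast alpha-myosin heavy chain from Myh6, and a larger share of the slow beta form from Myh7, with more skeletal actin from Acta1, is a known feature of stressed rodent hearts.

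Deposited levels were read as log2 values, and differences and fold values rest on that reading. The 31 genes were a bright group: 29 lay above the 95th percentile of 10553 negative control probe sets on all 9 arrays, and 13 belonged to the brightest 2% of all genes. The exceptions were Tnni1 and Tnnt1, the slow skeletal troponin I and T genes, which passed that level on 0 of the 9 arrays. Mean levels ran from 5.90 for Tnni1 to 13.1 for Tnnt2, values that depend on each probe set and do not rank genes by abundance. The label heart muscle fits these markers, and of 13 skeletal muscle markers 1 lay above the negative controls on each array. Across the 9 arrays the members differed little, with a median range of 0.24 between lowest and highest array, against 0.23 for the 6358 genes whose mean lay above the highest such percentile of any array. Ranges were under 0.2 for 11 members and over 0.5 for 4, namely Mylk4 (1.29), Pdlim3 (0.85), Acta1 (0.64) and Myom2 (0.57). Tied values, with an identical number on at least 3 arrays, occurred in 12 of the 31 genes and in 61.1% of all genes, and narrow the spread.

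2 libraries stood apart in other genes. Vesicle array 3 had a mean level of 6.84 over 9 lung epithelium markers, with 3 of them above the negative controls, where the other arrays had 4.84 to 5.19 and none above. Cell array 3 had a Fos level of 8.14, against 6.11 to 6.70 elsewhere, a gene chosen after its values were seen. Vesicle array 3 was the lowest array for 12 of the 31 sarcomere genes, among them Myl2, Myl3, Tnni3, Tnnc1 and Mylk4, and cell array 3 was the highest for Tmod1, Smyd1, Flnc, Unc45b and Pdlim3. The part of either library in the results was not tested beyond the values given without them.

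No sarcomere gene passed an adjusted p of 0.05 in any comparison, and neither did any of the 30142 genes (0% called). For vesicle against medium hearts, the limma model with the experiment as a block gave adjusted p-values of 0.675 or more over the members. At an unadjusted p under 0.05, 1 member was higher (1.91% of all genes) and 2 were lower (4.53% of all genes). The fitted difference lay above 0 for 13 of 31 members, with a median of -0.023 beside -0.012 over all genes, and ran from -0.44 for Mylk4 to 0.11 for Acta1. Above 0 lay 38.6% of all genes and 39.5% of the brightest 2%, whose median was -0.012. Without vesicle array 3, the median over the members was 0.0011. Vesicle and medium arrays differed in the same direction within both experiments for 19 of 31 members (6 higher, 13 lower). That is 61.3%, against 41.8% of all genes. A difference of 0 in either experiment counted as no shared direction. Tied values, which can give such a difference, occurred in 61.1% of all genes and in 12 of the 31 members. These shares therefore cannot be compared directly.

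For cell against medium hearts, 0 members had an unadjusted p under 0.05, where 1.68% of all genes were higher and 5.05% lower, and the lowest adjusted p was 0.682. That count depended on single arrays: it was 3 lower without cell array 3, 1 higher and 2 lower without medium array 1, 1 higher without cell array 1 and 1 lower without vesicle array 1. The median difference was -0.011, beside -0.0064 over all genes, with 13 of 31 above 0 and a span from -0.094 to 0.12. Above 0 lay 43.2% of all genes and 60.9% of the brightest 2%. The brightest 2% had a median of 0.0090, with 7 genes higher and 0 lower at an unadjusted p under 0.05. The direction was the same in both experiments for 10 members (1 higher, 9 lower), or 32.3%, against 39.5% of all genes. Tied values limit this comparison of shares in the same way. Vesicle and cell hearts share the medium arrays in these comparisons. Set against each other directly, vesicle hearts had 1 member higher and 3 lower than cell hearts at an unadjusted p under 0.05. Of all genes 1.75% were higher and 2.59% lower, and of the 603 genes of the brightest 2%, 12 were higher and 60 lower. The median difference of the members was 0.00093, beside -0.00070 over all genes and -0.020 over the brightest 2%. Over the members the lowest adjusted p was 0.920. After quantile normalization, 2 members were higher and 0 lower.

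**Figure D1:**
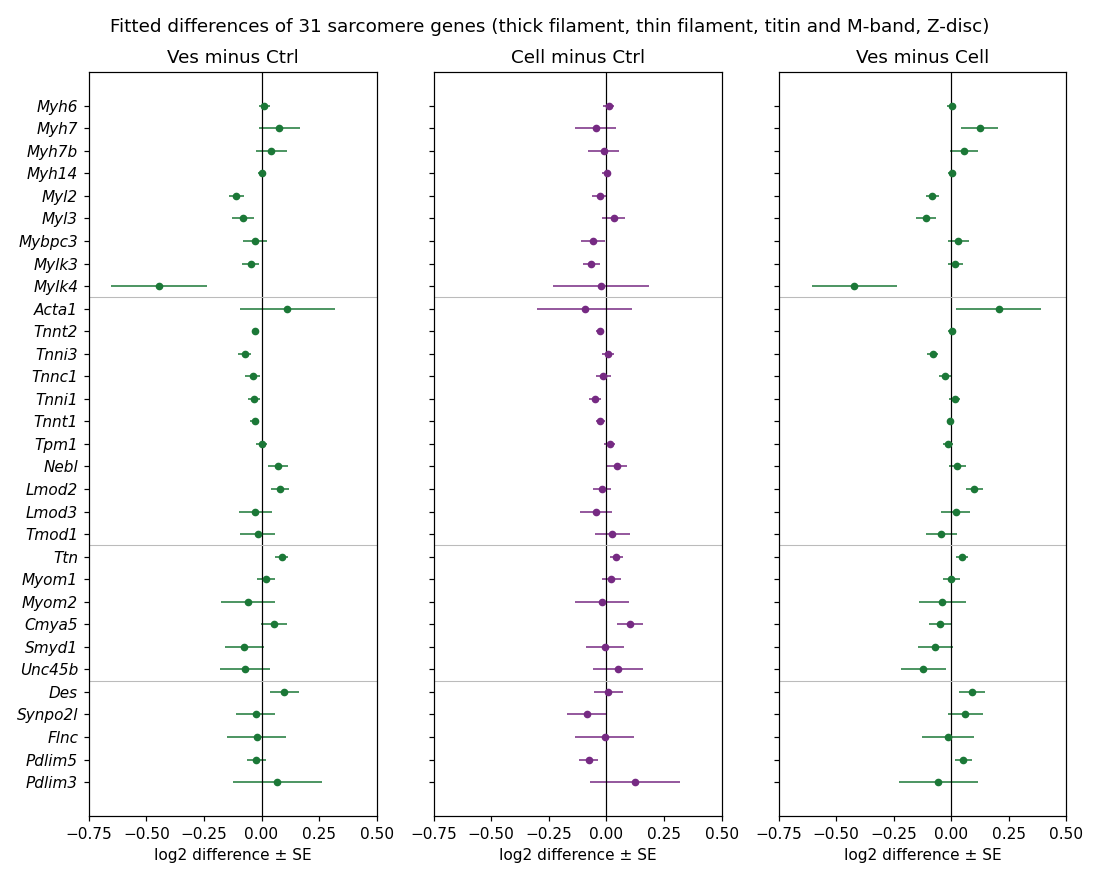
Fitted log2 difference of each of the 31 sarcomere genes, with bars of 1 standard error, for vesicle minus medium, cell minus medium and vesicle minus cell hearts; grey lines divide thick filament, thin filament, titin with M-band and assembly, and Z-disc genes. Most points lie close to 0, and Mylk4 lies farthest below it, at -0.44 and -0.42 in both comparisons of vesicle hearts.

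Of the thick filament genes, Myh6 was nearly level across all hearts. Its values were 12.96, 12.84 and 12.85 in vesicle hearts, 12.91, 12.88 and 12.86 in cell hearts, 12.88 in the sham heart, and 12.91 and 12.85 in medium hearts. The groups overlapped, and the highest and lowest arrays lay 0.12 apart. The fitted difference was 0.012 ± 0.024 (SE) for vesicle against medium hearts, with a 95% confidence interval of -0.050 to 0.073, or 0.966-fold to 1.05-fold, and -0.028 after quantile normalization.

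Myh7 stood at 10.88, 10.86 and 10.83 in vesicle hearts, 10.79, 10.83 and 10.58 in cell hearts, 10.93 in the sham heart, and 10.71 and 10.85 in medium hearts. The sham heart was highest and cell array 3 lowest, and the groups overlapped. Vesicle minus medium was 0.077 ± 0.089, an interval of -0.15 to 0.30 that spans 0.902-fold to 1.23-fold, and it was 0.17 in experiment 9 and -0.0068 in experiment 1. Cell minus medium was -0.046 ± 0.089.

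The ratio of the slow to the fast myosin form was read within each array as Myh7 minus Myh6, a measure that shows unequal change and not which form is more abundant. It was -2.08, -1.98 and -2.02 in vesicle hearts, -2.12, -2.05 and -2.28 in cell hearts, -1.95 in the sham heart, and -2.21 and -2.00 in medium hearts. Both treated groups overlapped the medium arrays. Vesicle hearts exceeded medium hearts by 0.077 on average (0.12 in experiment 9, 0.0013 in experiment 1; exact permutation test, two-sided, p = 0.6, adjusted p = 0.982), while cell minus medium was -0.045 (0.092 in experiment 9, -0.16 in experiment 1). With 3 arrays against 2 the smallest p this test allows is 0.1.

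Each of the cardiac myosin genes harbours a microRNA that is made from its intron, and the mature sequences are shown because each myosin locus gives a product of its own. Capitals mark the seed, bases 2 to 8 from the 5′ end, as given by RefSeq on GRCm38.p6.
mmu-miR-208a-3p, in Myh6, chr14:54949072-54949093, minus strand: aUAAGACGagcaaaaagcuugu
mmu-miR-208b-3p, in Myh7, chr14:54975710-54975731, minus strand: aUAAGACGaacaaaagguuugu
mmu-miR-499-5p, in Myh7b, chr2:155622893-155622913, plus strand: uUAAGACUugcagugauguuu

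miR-208a and miR-208b share the whole seed and differ at 3 of 22 bases, and the seed of miR-499 shares 6 of its 7 bases with theirs. The probe sets of the microRNA loci were dim and do not tell the mature form from its precursor. Mir208a read 7.15, 7.18 and 7.08 in vesicle hearts, 6.95, 7.30 and 7.02 in cell hearts, 6.51 in the sham heart, and 7.06 and 6.63 in medium hearts, and passed the negative control level on 1 array. Mir208b (2.90 to 3.50) and Mir499 (3.86 to 4.15) passed it on 0 arrays. Myh7b, the host of miR-499, was itself detected, at 8.44, 8.37 and 8.36 in vesicle hearts, 8.47, 8.36 and 8.18 in cell hearts, 8.19 in the sham heart, and 8.37 and 8.36 in medium hearts. Its low values were those of cell array 3 and the sham heart.

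The ventricular light chains, which bind the neck of the myosin head, varied more than Myh6. Myl2, the regulatory chain, read 9.69, 9.46 and 9.44 in vesicle hearts, 9.74, 9.59 and 9.51 in cell hearts, 9.59 in the sham heart, and 9.76 and 9.59 in medium hearts. Each vesicle array was lower than the medium array of its own experiment, although the groups overlapped across experiments. Vesicle minus medium was -0.11 ± 0.033, -0.070 in experiment 9 and -0.14 in experiment 1 (limma, unadjusted p = 0.0188, adjusted p = 0.675), and -0.060 if the sham heart was counted as a medium heart. Vesicle minus cell was -0.082 ± 0.029 (unadjusted p = 0.0355, adjusted p = 0.920).

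Myl3, the essential chain, read 10.67, 10.52 and 10.39 in vesicle hearts, 10.81, 10.57 and 10.53 in cell hearts, 10.53 in the sham heart, and 10.71 and 10.57 in medium hearts. Vesicle arrays were again lower than medium arrays of the same experiment, with differences of -0.046 in experiment 9 and -0.12 in experiment 1. The fitted value was -0.081 ± 0.049 against medium and -0.11 ± 0.043 against cell hearts (unadjusted p = 0.0476, adjusted p = 0.920). After quantile normalization these were 0.0035 and -0.030, and the difference from medium was -0.031 without medium array 2.

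Mylk4, a kinase of the myosin light chain kinase family, had the widest spread of all members. Its values were 8.03, 8.07 and 7.65 in vesicle hearts, 8.94, 8.03 and 8.05 in cell hearts, 7.83 in the sham heart, and 8.68 and 8.22 in medium hearts. The 3 vesicle arrays lay below both medium arrays, as did cell arrays 2 and 3 and the sham array, while cell array 1 was the highest of all. The difference of -0.44 ± 0.21 between vesicle and medium hearts (-0.65 in experiment 9, -0.36 in experiment 1) had an unadjusted p of 0.0844, and it was -0.23 without vesicle array 1 and -0.20 with the sham array counted as a medium array. Vesicle minus cell was -0.42 ± 0.19, which was -0.24 without vesicle array 1 and -0.22 without cell array 1. Among the other genes listed under the thick filament, Mybpc3 (myosin-binding protein C), Mylk3 (the cardiac light chain kinase) and Myh14 (a non-muscle myosin heavy chain) had ranges of 0.19, 0.22 and 0.034. Myh14 was the least variable member. By role, the 9 genes listed under the thick filament include the kinases Mylk3 and Mylk4 and the non-muscle Myh14. They had a median of -0.029 for vesicle minus medium hearts (4 above 0) and -0.024 for cell minus medium hearts (3 above 0).

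**Figure D2:**
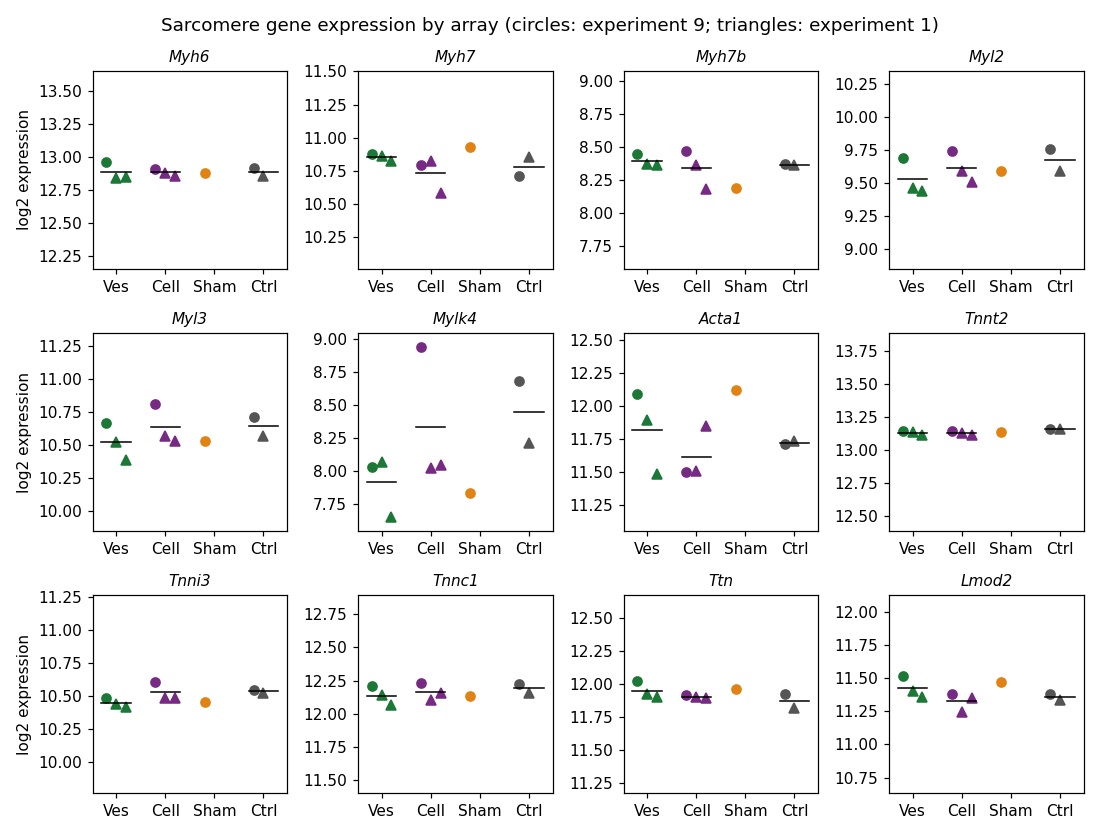
Log2 expression of 12 sarcomere genes on each array, by group, with a line at the mean of each group with more than 1 array; circles are experiment 9, triangles are experiment 1, and every panel spans the same number of log2 units. Mylk4 and Acta1 scatter widely, Tnnt2 stays within 0.048, and for Myl2 and Myl3 the circles of the injected groups sit above the triangles.

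In the thin filament, Tnnt2, the cardiac troponin T that ties the complex to tropomyosin, was the brightest member and among the steadiest. It read 13.15, 13.14 and 13.11 in vesicle hearts, 13.14, 13.13 and 13.12 in cell hearts, 13.14 in the sham heart, and 13.16 and 13.16 in medium hearts. All treated arrays lay below both medium arrays, by -0.027 ± 0.016 for vesicle and -0.028 ± 0.016 for cell hearts, with adjusted p-values of 0.681 and 0.688, and by -0.0058 and 0.0016 once arrays were centred on their medians.

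Tnni3, the cardiac inhibitory troponin, read 10.49, 10.44 and 10.42 in vesicle hearts, 10.61, 10.49 and 10.49 in cell hearts, 10.46 in the sham heart, and 10.55 and 10.53 in medium hearts. Vesicle arrays did not overlap medium arrays and did not exceed any cell array. The difference from medium was -0.074 ± 0.026 (-0.056 in experiment 9, -0.095 in experiment 1; unadjusted p = 0.0367, adjusted p = 0.675), but it was -0.037 without medium array 2 and -0.019 after quantile normalization. The difference from cell hearts, -0.080 ± 0.023 (unadjusted p = 0.0176, adjusted p = 0.920), was -0.0023 after quantile normalization.

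Tnnc1, the calcium-binding troponin C, read 12.21, 12.14 and 12.06 in vesicle hearts, 12.23, 12.10 and 12.15 in cell hearts, 12.14 in the sham heart, and 12.22 and 12.16 in medium hearts. Tpm1, the main cardiac tropomyosin, read 9.39, 9.35 and 9.31 in vesicle hearts, 9.41, 9.35 and 9.32 in cell hearts, 9.35 in the sham heart, and 9.36 and 9.35 in medium hearts. Groups overlapped for both genes, and the fitted treatment difference of largest size was -0.039 ± 0.032, for Tnnc1 in vesicle against medium hearts.

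The slow skeletal troponins, used by the fetal heart in the case of Tnni1, stayed at the level of the negative controls in every group. Tnni1 read 5.89 in all 3 vesicle hearts, 5.86, 5.88 and 5.89 in cell hearts, 5.89 in the sham heart, and 5.87 and 5.97 in medium hearts. Tnnt1 read 6.12, 6.15 and 6.15 in vesicle hearts, 6.15, 6.15 and 6.13 in cell hearts, 6.15 in the sham heart, and 6.15 and 6.18 in medium hearts. Tnni1 had the lowest p of the members for cell against medium hearts, with -0.049 ± 0.026 and an unadjusted p of 0.114, which rests on medium array 2: without it the difference was -0.0031.

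Acta1, skeletal actin, ranged by 0.64 over the arrays, the widest of the thin filament members. Its promoter is shown with that of Myl3 and Mylk4 because, of the measured members with a CArG or MEF2 box, these 3 had the widest ranges. Capitals mark the boxes that were searched for, on both strands: the CArG box bound by serum response factor, the MEF2 box, CATTCC (the MCAT box) and TATAAA. Each line ends just before the RefSeq start on GRCm38.p6.
Acta1, chr8:123894776-123894885, minus strand: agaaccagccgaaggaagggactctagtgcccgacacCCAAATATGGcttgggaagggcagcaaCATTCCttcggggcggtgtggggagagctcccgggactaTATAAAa
Myl3, chr9:110763498-110763677, plus strand: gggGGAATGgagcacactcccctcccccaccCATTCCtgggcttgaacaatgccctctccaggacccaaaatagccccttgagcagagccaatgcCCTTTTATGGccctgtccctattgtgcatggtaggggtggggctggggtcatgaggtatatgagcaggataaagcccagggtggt
Mylk4, chr13:32783965-32784074, minus strand: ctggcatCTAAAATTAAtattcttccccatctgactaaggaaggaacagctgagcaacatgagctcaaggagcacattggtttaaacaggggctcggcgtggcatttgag

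The CArG box spans positions -73 to -64 from the start in Acta1 and -85 to -76 in Myl3, and the MEF2 box spans -103 to -94 in Mylk4. In windows of 250 bases before to 50 bases after the start, a CArG box was found in 12.2% of 41 windows of the 30 sarcomere genes that have one, against 1.63% of 32851 windows of all genes. The MEF2 box was in 12.2% against 3.19%, CATTCC in 34.1% against 14.7%, and TATAAA in 17.1% against 13.6%. CArG boxes were in Acta1, Actc1, Myl3, Myom1 and Nebl, and MEF2 boxes in Mybpc3, Mylk4, Synpo2l and Ttn. These matches describe letters and not bound sites.

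Acta1 read 12.09, 11.89 and 11.49 in vesicle hearts, 11.50, 11.51 and 11.85 in cell hearts, 12.12 in the sham heart, and 11.71 and 11.74 in medium hearts. The sham heart and vesicle array 1 were highest, vesicle array 3 was lowest, and the groups overlapped. Vesicle minus medium was 0.11 ± 0.21, which was 0.38 in experiment 9 and -0.047 in experiment 1.

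The leiomodins lengthen thin filaments at the pointed end and tropomodulin caps them. Lmod2, the cardiac leiomodin, read 11.51, 11.41 and 11.36 in vesicle hearts, 11.38, 11.25 and 11.35 in cell hearts, 11.47 in the sham heart, and 11.38 and 11.34 in medium hearts. Vesicle arrays lay above the cell arrays of their own experiment, by 0.10 ± 0.036 (unadjusted p = 0.0370, adjusted p = 0.920). Lmod3 read 8.42, 8.25 and 8.06 in vesicle hearts, 8.37, 8.08 and 8.22 in cell hearts, 8.25 in the sham heart, and 8.46 and 8.16 in medium hearts, with overlapping groups. Tmod1 and Nebl (nebulette, an anchor of thin filaments at the Z-disc) had ranges of 0.24 each. Over the 11 thin filament genes the median was -0.026 for vesicle minus medium hearts (4 above 0) and -0.020 for cell minus medium hearts (4 above 0).

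Ttn was the member higher in vesicle than in medium hearts at an unadjusted p under 0.05. It read 12.02, 11.93 and 11.90 in vesicle hearts, 11.92, 11.90 and 11.89 in cell hearts, 11.96 in the sham heart, and 11.93 and 11.82 in medium hearts. Each vesicle array exceeded the medium array of its experiment, by 0.097 in experiment 9 and 0.092 in experiment 1, and the fitted difference was 0.089 ± 0.028 (unadjusted p = 0.0242, adjusted p = 0.675), or 0.048 after quantile normalization. The groups overlapped across experiments. Ttn and Mylk4 were picked for a low p in this comparison, and Lmod2 for a low p in vesicle against cell hearts. Their agreement between the experiments therefore adds nothing to the p-values.

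Cmya5, or myospryn, a large partner of titin and desmin, read 10.03, 10.00 and 9.93 in vesicle hearts, 10.12, 10.04 and 9.94 in cell hearts, 9.96 in the sham heart, and 10.08 and 9.82 in medium hearts. Cell minus medium was 0.10 ± 0.056 (unadjusted p = 0.127). Medium array 2 was the lowest of all, and the difference was 0.016 without it and 0.17 without medium array 1. The M-band genes Myom1 and Myom2 had ranges of 0.16 and 0.57, and Myom2 was highest on vesicle array 1 and lowest on vesicle array 3. Smyd1 and Unc45b, which help myosin fold and assemble, were highest on cell array 3, at 10.07 and 9.0. The 6 genes of titin, M-band and assembly had a median of -0.020 for vesicle minus medium hearts (3 above 0) and 0.031 for cell minus medium hearts (4 above 0).

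At the Z-disc, Pdlim5 read 9.22 in all 3 vesicle hearts, 9.05, 9.22 and 9.22 in cell hearts, 9.27 in the sham heart, and 9.19 and 9.26 in medium hearts. This PDZ and LIM domain protein had a cell minus medium difference of -0.076 ± 0.041 (unadjusted p = 0.122), which was -0.022 without cell array 1, and its vesicle arrays hold tied values, which narrow its spread. Pdlim3, of the same family, ranged by 0.85, from 8.29 on cell array 1 to 9.14 on cell array 3. Flnc (filamin C) ranged by 0.45 and Unc45b by 0.48 with the same array highest, and Des (desmin) by 0.20. The 5 Z-disc genes had medians of -0.020 and -0.0068 for vesicle and cell minus medium hearts, with 2 above 0 in each.

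**Figure D3:**
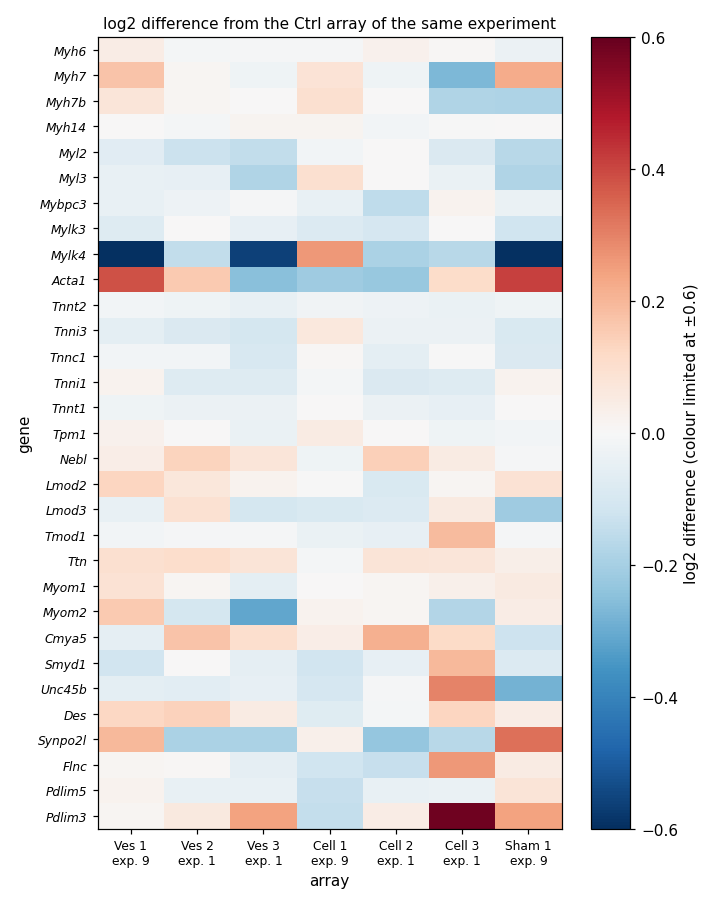
Log2 difference of each sarcomere gene on each vesicle, cell and sham array from the medium array of the same experiment; the colour scale stops at 0.6 in either direction. Mylk4 is low on vesicle arrays 1 and 3 and on the sham array, Acta1 is high on vesicle array 1 and the sham array, and the 5 deepest red cells of cell array 3 are those of Tmod1, Smyd1, Unc45b, Flnc and Pdlim3.

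The sarcomere genes were also compared between the experiments, with treatment in the model. At an unadjusted p under 0.05, 14 of 31 members were higher and 0 lower in experiment 9 than in experiment 1, where 6.2% of all genes were higher and 6.56% lower, and none passed after adjustment (lowest adjusted p 0.212). The median difference was 0.053, beside -0.010 over all genes, and it was -0.0029 with 6 members higher and 3 lower after quantile normalization. The members are bright, and over the 603 genes of the brightest 2% the median was 0.041 with 125 higher and 9 lower. The count of 14 was 6 without vesicle array 1 (with 2 lower) or without cell array 1, 9 without vesicle array 3, 8 without either medium array, and 6 (with 2 lower) without vesicle array 3 and cell array 3 together.

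By role, all 9 genes listed under the thick filament lay above 0 in experiment 9 against experiment 1 (5 with an unadjusted p under 0.05). Of these, Myh7 (0.0048 ± 0.071) and the non-muscle Myh14 (0.0089 ± 0.015) were close to 0. Above 0 lay 8 of 11 thin filament genes (6 with an unadjusted p under 0.05) and 5 of 6 genes of titin, M-band and assembly (3). All 5 Z-disc genes lay below 0, with a median of -0.13. Over the 31 members, 22 lay above 0, or 71%, beside 40.7% of all genes and 78.8% of the brightest 2%. The share of members was above that of all genes but not above that of the brightest 2%. Myl2 differed by 0.20 ± 0.026 (unadjusted p = 5.2e-04), Myl3 by 0.21 ± 0.039 (0.0028), Lmod3 by 0.26 ± 0.057 (0.0060) and Myh6 by 0.075 ± 0.019 (0.0111), which was 0.016 after quantile normalization. In each of these 4 genes, the 3 injected arrays of experiment 9 lay above all 5 arrays of experiment 1. They were picked for the lowest p of the members in this comparison, so that separation adds nothing to the p-values. The sham array, although of experiment 9, lay within or at the edge of the range of experiment 1 for all 4. Mylk4 differed by 0.52 ± 0.17, a value of 0.30 without cell array 1. The others past the unadjusted threshold were Nebl, Tnnc1, Ttn, Tnni3, Cmya5, Mylk3, Myom2, Lmod2 and Tpm1.

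Markers of other cells moved with the experiment too. The 6 atrial markers had mean levels of 7.44 to 7.52 on the injected arrays of experiment 9 and 7.89 to 8.25 on those of experiment 1, and all 6 were lower in experiment 9. All 6 smooth muscle markers (7.47 to 7.62, against 7.75 to 7.95) and all 7 macrophage markers were lower there as well. Of the 14 heart muscle genes outside the sarcomere, 11 were higher. In the remaining lists 4 of 6 endothelial, 2 of 8 fibroblast and scar and 4 of 13 skeletal muscle markers were higher. All 9 lung epithelium markers were lower. Of all 30142 genes 17543 were lower, while of the 603 genes of the brightest 2%, 475 were higher. The part of these other cells in the shift of the sarcomere genes was not tested. Whether treatment effects differed between the experiments was tested by an interaction term with 2 residual degrees of freedom: no member passed adjustment (lowest adjusted p 0.112 for vesicle and 0.0891 for cell hearts), and 3 and 5 of 31 had an unadjusted p under 0.05, where 18.1% and 18.8% of all genes did.

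Other isoform pairs were set against each other in the same way, in 24 exact permutation tests over 8 pairs and 3 comparisons. Adjusted p-values ran from 0.982 to 1, but these tests pool the experiments, and with a smallest p of 0.1 none could pass the threshold, so the values are a description. The atrial light chain Myl7, set against the ventricular Myl2, gave -2.47, -1.46 and -1.31 in vesicle hearts, -2.13, -0.63 and -0.57 in cell hearts, -2.30 in the sham heart, and -2.45 and -1.05 in medium hearts. The 4 arrays of experiment 9 lay below all 5 of experiment 1. Within experiment 1, vesicle arrays were lower and cell arrays higher than the medium array, by -0.34 and 0.44, and within experiment 9 the differences were -0.026 and 0.32. Averaged within experiments, vesicle minus medium was -0.18, where the pooled value was -0.0010. Myl4, the atrial essential chain, set against Myl3 ran from -4.41 to -4.09 in experiment 9 and from -3.89 to -3.65 in experiment 1, with Myl4 itself not above the negative controls on any array.

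**Figure D4:**
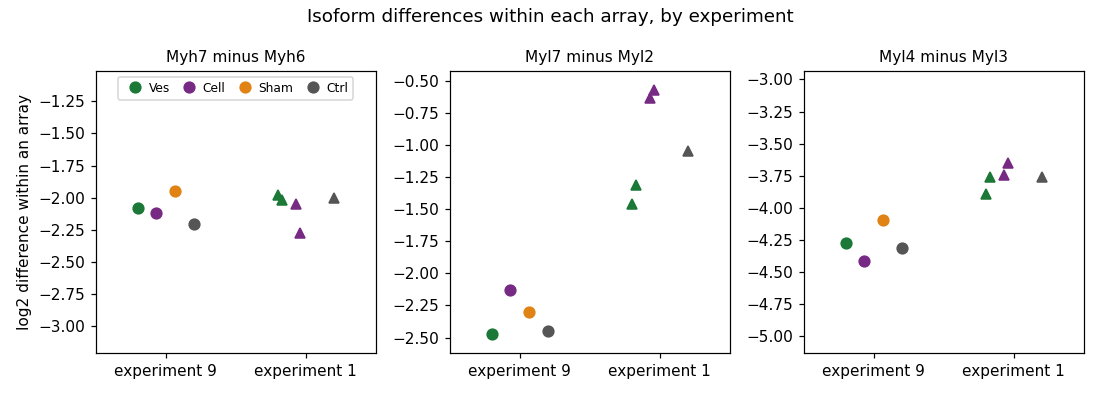
Within-array log2 difference of Myh7 minus Myh6, Myl7 minus Myl2 and Myl4 minus Myl3, by experiment, with 1 point per array. Every panel spans the same number of log2 units, around its own centre. Myh7 minus Myh6 stays between -2.28 and -1.95, while both atrial to ventricular light chain differences are lower on all 4 arrays of experiment 9.

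The sham heart could be compared with medium array 1 by value alone, as 1 array each. Acta1 was 1.33-fold and Mylk4 0.555-fold its level in the medium heart, differences of 0.41 and -0.85 on the log2 scale. Beyond a 1.1-fold difference, 4 members were higher (8.05% of all genes), namely Acta1, Synpo2l (0.33), Pdlim3 (0.24) and Myh7 (0.22), and 6 were lower (7.69% of all genes). The lower ones were Mylk4, Unc45b (-0.29), Lmod3 (-0.21), Myh7b (-0.19), Myl3 (-0.18) and Myl2 (-0.17). Medium array 1 was itself the lowest of all arrays for Synpo2l and the highest for Myl2 and Lmod3. The sham array was the highest for Acta1 and Myh7 and the lowest for Unc45b. Comparison of these shares is limited by tied values, as above. The median over the members was -0.0061, beside 0 over all genes.

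Of the other sarcomere genes, another list chosen by name, 63 were measured, and none passed adjustment in any comparison. For vesicle against medium hearts 29 of 63 lay above 0, and 1 was higher and 1 lower at an unadjusted p under 0.05, beside 1.91% and 4.53% of all genes: Acta2, smooth muscle actin, by 0.42 ± 0.16, and Myl7, by -0.33 ± 0.12. For cell against medium hearts 1 was higher and 2 lower, beside 1.68% and 5.05% of all genes: Myl7 (0.38 ± 0.12), Tcap, the titin cap (-0.44 ± 0.14), and Myom3 (-0.088 ± 0.029), which passed the negative control level on 0 arrays and has tied values. The Tcap difference was unequal, at -0.11 in experiment 9 and -0.65 in experiment 1. Vesicle against cell hearts gave 1 higher and 3 lower, beside 1.75% and 2.59% of all genes, with Xirp2, an actin-binding protein of muscle junctions, at 0.36 ± 0.12 and Myl7 at -0.72 ± 0.11 (unadjusted p = 0.0011, adjusted p = 0.920).

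Myl7 read 7.21, 8.0 and 8.13 in vesicle hearts, 7.61, 8.96 and 8.93 in cell hearts, 7.29 in the sham heart, and 7.31 and 8.55 in medium hearts. Vesicle arrays were below the cell and medium arrays of their own experiment, and cell arrays above the medium arrays. Whether atrial tissue was taken in equal share with each heart is not stated, and its part in the Myl7 values was not tested.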

How the data were processed

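Total RNA of whole hearts was labelled for an Affymetrix whole-transcript array, per the labels' protocols. The authors deposited 1 value per probe set and array, read here as log2, with array medians of 5.56 to 5.63 over genes. Their normalization and log base are not known here; the submitters' processing notes name Partek alone. Of 80202 probe sets, 30604 have 1 symbol, and the brightest probe set per gene left 30142 genes, with symbols updated through RefSeq GRCm38.p6. The member genes and lists were chosen with earlier results of these data known.

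Differences were fitted with lmFit and eBayes (limma 3.58.1, R 4.3.3) on the 8 injected arrays, with 1 mean per treatment and experiment as a block (4 residual and 1.18 prior degrees of freedom), two-sided, adjusted by Benjamini-Hochberg over all genes at 0.05. Values after ± are standard errors. The steps were tested on simulated data. Given on every array were the major isoform genes and, for each comparison, the 4 members of lowest unadjusted p, and for other sarcomere genes the 3 with the lowest p; a few more were picked after their values were seen. Alternatives were other normalizations, models, filters and left-out arrays.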

Additional observations from a re-analysis of the deposited data

How the results depend on the processing

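No member passed an adjusted p of 0.05 under any of 18 alternatives, and the lowest adjusted p of a named member was 0.0781. In 72 differences of 18 named members, recomputed 1260 times, the sign changed 89 times, in 36 of them. Over all genes, 823 and 901 were called without medium array 1 for vesicle and cell against medium hearts, none of them members; plain least squares called 4 for vesicle against medium hearts and 2 between experiments, and pooling sham with medium hearts called 1 for cell hearts. Centring arrays on their median moved the genes at an unadjusted p under 0.05 to 2.81% higher and 2.29% lower for vesicle against medium hearts (1.91% and 4.53% before), to 3.39% and 1.84% for cell against medium hearts (1.68% and 5.05%), and to 11.7% and 2.41% between experiments (6.2% and 6.56%).

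The member median for experiment 9 against experiment 1 was -0.0029 after quantile normalization and 0.086 after centring, and 0.041 to 0.067 with 1 array left out. For vesicle against medium hearts it was -0.0019 after centring and -0.031 to 0.0011 with 1 array left out. For cell against medium hearts it was 0.018 after centring, 0.0085 with sham pooled and -0.025 to 0.0050 with 1 array left out. Vesicle against cell hearts gave -0.0082 to 0.019. Leaving out vesicle array 3 and cell array 3 together, an alternative chosen after seeing the data, gave medians of 0.0011 for vesicle against medium and 0.022 for vesicle against cell hearts. Without the experiment block no difference between experiments can be fitted. The replicate number in the titles is 1 for every array and pairs nothing. With the VTS number as a replicate block in place of the experiment, also chosen after seeing the data, 0 members were called, the member medians were -0.022 for vesicle against medium, -0.0041 for cell against medium and 0.00093 for vesicle against cell hearts, and the last comparison had 0 members higher and 3 lower at an unadjusted p under 0.05. Deviations from the group means correlated across genes by 0.031 to 0.22 between arrays with the same VTS number. Between arrays with different numbers the correlations ran from -0.31 to 0.20, and deviations within a group cancel out, so these values depend on each other. Cell array 3 correlated more with vesicle array 1 (0.15) than with vesicle array 3. Array 3 minus array 2 correlated by 0.091 between vesicle and cell hearts. Whether the number marks a pairing is not stated and was not tested, and the experiment was kept as the block.

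Isoform differences, none of which passed a test, changed sign as follows. After quantile normalization, cell minus medium was 0.047 for Myh7 minus Myh6, 0.012 for Myh7b minus Myh6 and 0.0055 for Tnni1 minus Tnni3, and vesicle minus medium was -0.0016 for Tnnt1 minus Tnnt2 and -0.026 for Myl4 minus Myl3. With sham pooled, cell minus medium was 0.032 for Myh7b minus Myh6 and 0.0063 for Lmod3 minus Lmod2, and vesicle minus medium was 0.18 for Myl7 minus Myl2. Averaged within experiments, vesicle minus medium was -0.0057 for Tnnt1 minus Tnnt2 and -0.012 for Myl4 minus Myl3, which also gave -0.021 for cell minus medium and 0.0086 for vesicle minus cell. Without vesicle array 3 and cell array 3, cell minus medium was 0.019 for Myh7 minus Myh6, 0.039 for Myh7b minus Myh6, 0.0098 for Myom2 minus Myom1 and -0.043 for Myl4 minus Myl3; vesicle minus medium was -0.011 for Tnnt1 minus Tnnt2 and -0.045 for Myl4 minus Myl3; and vesicle minus cell was -0.015 for Myh7b minus Myh6. The cause of these changes was not tested.

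With 1 array left out, vesicle minus medium spanned -0.027 to 0.18 for Myh7 minus Myh6, -0.00012 to 0.054 for Myh7b minus Myh6, -0.0018 to 0.12 for Tnni1 minus Tnni3, -0.017 to 0.022 for Tnnt1 minus Tnnt2, -0.22 to 0.34 for Myl4 minus Myl3 and -0.70 to 0.70 for Myl7 minus Myl2. Cell minus medium spanned -0.15 to 0.059 for Myh7 minus Myh6, -0.079 to 0.039 for Myh7b minus Myh6, -0.096 to 0.022 for Tnni1 minus Tnni3, -0.012 to 0.027 for Tnnt1 minus Tnnt2, -0.18 to 0.071 for Lmod3 minus Lmod2, -0.15 to 0.0098 for Myom2 minus Myom1, -0.18 to 0.38 for Myl4 minus Myl3 and -0.065 to 1.33 for Myl7 minus Myl2. Vesicle minus cell spanned -0.012 to 0.11 for Myh7b minus Myh6, -0.019 to 0.011 for Tnnt1 minus Tnnt2, -0.15 to 0.054 for Myom2 minus Myom1 and -0.27 to 0.11 for Myl4 minus Myl3. Signal over the negative controls limits Tnni1, Tnnt1, Myl4 and Myom3, whose values stay near or under that level.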

Other observations

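Genes of the scar and of heart muscle outside the sarcomere were also followed by name. Of 8 fibroblast and scar markers, all 8 lay above 0 for vesicle against medium hearts (38.6% of all genes did), with a median log2 difference of 0.14, and 2 of 8 did for cell against medium hearts (43.2% of all genes), with a median of -0.034. None passed adjustment (lowest adjusted p 0.675 and 0.682 in limma). At an unadjusted p under 0.05, 2 of the 8 were higher in vesicle hearts, where 1.91% of all genes were higher, and 0 differed in cell hearts. The mean level of the 8 markers was 8.73, 8.82 and 8.79 in vesicle hearts, 8.45, 8.60 and 8.74 in cell hearts, 8.86 in the sham heart, and 8.50 and 8.67 in medium hearts. The sham heart, which received no injection, was thus the highest array, and both comparisons share the medium arrays. Of 14 heart muscle genes outside the sarcomere, including calcium handling and energy supply genes, 12 lay below 0 for vesicle against cell hearts. Their median was -0.044 and their lowest adjusted p in limma 0.920. Of all 30142 genes, 15257 lay below 0. These 14 genes are bright, with mean levels of 10.3 to 10.5. Of the 603 genes of the brightest 2%, 405 lay below 0, with a median of -0.020.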
